A study of Mus musculus with 83 samples.

Results

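The phase II conjugation enzymes described here were taken by gene name from the protein-coding rows of a colon RNA-seq count table. They comprise the glutathione S-transferases (Gsta, Gstm, Gstp, Gstt, Gsto, Gstk, Gstz and the membrane-bound Mgst genes), the UDP-glucuronosyltransferases (Ugt1, Ugt2 and Ugt3) and the sulfotransferases (Sult), each name followed by its member number. The rule found 57 genes among 19326 protein-coding rows of a table of 37764 rows, and 10 further annotated genes of these families were not analysed here. All 83 mice were male C57BL/6J/Ukj animals kept for ageing without any treatment, at 3 months (n = 16), 9 months (n = 16), 15 months (n = 16), 24 months (n = 17) and 28 months (n = 18). Each library was prepared from polyadenylated RNA of the rinsed proximal colon of 1 mouse, in 1 of 3 preparation batches that each held every age with 4 to 7 mice. The tissue was whole colon, with epithelium, muscle and immune cells together, so that fewer cells of a type and less RNA per cell cannot be told apart. Each age is a different set of mice, not the same mice followed over time.

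Phase II enzymes attach a polar group to foreign chemicals, bile pigments, steroids and reactive lipids, which makes them more soluble and ready for export. Glutathione S-transferases join electrophiles to glutathione, UDP-glucuronosyltransferases transfer glucuronic acid from UDP-glucuronic acid, and sulfotransferases transfer sulfate from the donor PAPS. In the gut these enzymes act mainly in the epithelium, on compounds from the diet, the bile and the bacteria, and several are known targets of the xenobiotic sensors Nrf2, Ahr, PXR and CAR.

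Library depth ran from 23026370 to 75838290 assigned reads with a median of 35495123, and each of the 649 same-age pairs was farther apart than sampling noise allows (lowest chi-square per degree of freedom 11.8). Colonocyte markers had a mean log2 CPM of at least 8.92 in every mouse, and pan-epithelial markers of at least 9.54. Of 6 liver markers 3 had a mean below 0.1 CPM (counts scaled to library size), and of 5 kidney markers 4 did. In 8 mice the level of the smooth muscle or the epithelial markers stood apart from the rest (4 at 3 months, 3 at 9 months and 1 at 15 months). Smooth muscle markers, as a mean log2 CPM, ran from 6.96 to 9.74 at 3 months and from 8.64 to 9.58 at 28 months. The output genes of the circadian clock (Dbp, Tef, Per3, Nr1d1 and Nr1d2) had a mean log2 CPM of 3.62 to 5.21 at 3 months and 3.53 to 6.76 at 28 months, where the median was 5.68, and 9 of the 18 mice of 28 months lay above every mouse of the other ages. The time of day at which the colons were taken is not given in the sources used here. Where leaving out either group of libraries changed the counts of called enzymes by over 1.5 times, or ended a call between pairs of ages, this is stated beside the result. Pancreatic acinar markers reached a mean log2 CPM of 4.47 to 5.47 in 3 mice of 24 and 28 months, against at most 1.18 in the other 80, and in those 3 mice Mgst1 stood at 116.6 to 123.3 CPM and Gsta1 at 8.52 to 11.5 CPM, where all mice of 24 months ran from 95.7 to 137.2 CPM for Mgst1 and from 6.43 to 13.1 CPM for Gsta1, and the 28-month ranges given further on also hold these values.

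Of the 57 genes, 40 passed the filter on low counts. The 17 that did not were Gstt4, Sult1c1, Sult1e1, Sult2a1, Sult2a4, Sult2a8, Sult6b1, Sult6b2, Ugt1a5, Ugt1a6b, Ugt1a8, Ugt1a9, Ugt2a1, Ugt2a3, Ugt2b37, Ugt2b38 and Ugt3a2. Over all 83 mice Sult1e1, the estrogen sulfotransferase, had 115 counts in all, and the hydroxysteroid sulfotransferases Sult2a1, Sult2a4 and Sult2a8 had 1 count each.

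Several of these genes are near copies of each other, which bears on what a count of one gene can mean. Of the 100-base windows of Gsta1 transcripts, 80.6% occurred letter for letter in another gene, among them Gsta2 and the neighbouring Gm3776 and Gm10639. The share was 28.4% for Gsta2, 46.9% for Gstp2 and 25.1% for Gstp1. The study describes its reads as kept only where they mapped uniquely, by dropping secondary alignments, a filter that still leaves the primary alignment of a read with several matches. Whether the counting step set such reads aside is not given in the sources used here, so the split of the signal between Gsta1 and its copies between Gstp1, Gstp2 and their pseudogene Gstp-ps, and among the UGT1 genes is uncertain, and the values of these genes are to be read with that limit. The UGT1 genes have a first exon each and share the exons that follow, so that they overlap on chromosome 1 (Ugt1a7c at chr1:88095062-88220002 and Ugt1a1 at chr1:88211959-88218997, GRCm38). Ugt1a1 has 913 of its 2224 exon bases to itself, and Ugt1a7c has 1915 of 4219, of which 998 lie at a 3′ end that the other models lack.

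The stretches just upstream of Gsta1 and Gsta2 are shown because these neighbours rose by like amounts with age. They are 120 bases each that end at the first exon next to the RefSeq start (RefSeq promoter table, GRCm38.p6), Gsta1 at chr9:78230536-78230655 on the plus strand and Gsta2 at chr9:78347169-78347288 on the minus strand. The annotation also has a longer Gsta2 transcript that starts at 78355788, and the Gsta2 stretch lies in an intron of it. The capitals mark the longest run the 2 share, which is 29 bases.

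Gsta1: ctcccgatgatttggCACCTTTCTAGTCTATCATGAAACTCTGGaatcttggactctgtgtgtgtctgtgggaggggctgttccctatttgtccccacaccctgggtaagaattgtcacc

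Gsta2: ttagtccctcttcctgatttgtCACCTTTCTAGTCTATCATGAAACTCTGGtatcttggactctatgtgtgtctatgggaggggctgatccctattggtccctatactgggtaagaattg

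Aligned end to end, 102 of 127 positions of these stretches were identical (80.3%). Over the whole 250 bases upstream, Gsta1 and Gsta2 were 73.0% identical, whereas Gsta3, which lies on chromosome 1, was 56.1% identical to Gsta1 and 55.3% to Gsta2. Both pi class genes with high counts hold the same 30 bases around an AP-1 motif, spelled TGAGTCA and shown in capitals, on the minus strand of chromosome 19.

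Gstp1 (chr19:4037968-4037997) and Gstp2 (chr19:4042292-4042321): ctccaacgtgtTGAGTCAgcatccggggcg

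The letters of 3 motifs were searched on both strands of the 250 bases upstream of 63 promoters, which belong to 51 of the 57 genes, and of all 32851 promoters in the table. The core of the antioxidant response element, TGACNNNGC, was in 6.35% of the members' promoters and in 10.2% of all. The members that hold it were Gsta3, Gstm5, Gstm7 and Mgst1, and the sites of 3 of them follow with the motif in capitals, which in Mgst1 lies on the reverse strand.

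Gsta3 (chr1:21240454-21240483): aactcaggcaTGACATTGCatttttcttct

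Gstm7 (chr3:107931724-107931753): tctgaagaccTGACAAAGCgaagccaatcc

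Mgst1 (chr6:138140461-138140490): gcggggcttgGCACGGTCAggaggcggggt

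The core of the Ahr element, GCGTG, was in 19.0% of the members' promoters and 28.2% of all, and the AP-1 motif was in 11.1% and 4.46%. Positions are relative to the RefSeq starts. In the GENCODE annotation the Gstm7 and Mgst1 sites and part of the Gstp1 site lie in the first exon of the longest transcript, and the Gstp2 site lies inside the span of a longer transcript. A match is a description of letters, and binding was not measured.

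Levels between genes were compared as TPM, a unit that corrects for transcript length. Together the enzymes made up 0.583% ± 0.0417 of the TPM of a library (SD, n = 83 mice), from 0.47 to 0.706%. The 10 highest genes held 74.7% ± 1.11 of that sum. At the top stood Mgst3, a membrane-bound glutathione transferase and peroxidase, at 834 ± 102 TPM, and Sult1a1, the main phenol sulfotransferase, at 799 ± 138 TPM. These first ranks differed by less than their spread over mice. Next came Gsto1, a glutathione-dependent reductase, at 539 ± 36.5 TPM, Gstm1 at 500 ± 48.6 TPM and the glucuronosyltransferase Ugt2b34 at 437.5 ± 50.5 TPM, and of these Gsto1 and Gstm1 differed by less than the SD of Gstm1. Sult1d1, which sulfates catecholamines, followed at 402 ± 85.8 TPM and Gstp1 at 360 ± 40.8 TPM. The lowest that passed the filter were Gsto2 at 0.684 TPM, Sult5a1 at 0.386 TPM, Ugt1a2 at 0.284 TPM and Ugt2b1 at 0.261 TPM. Ugt1a7c stood at 156 TPM by its whole exon length and at 340 TPM by its unshared bases, and Ugt1a1, the bilirubin conjugating enzyme, at 98.7 and 238 TPM.

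**Figure D1:**
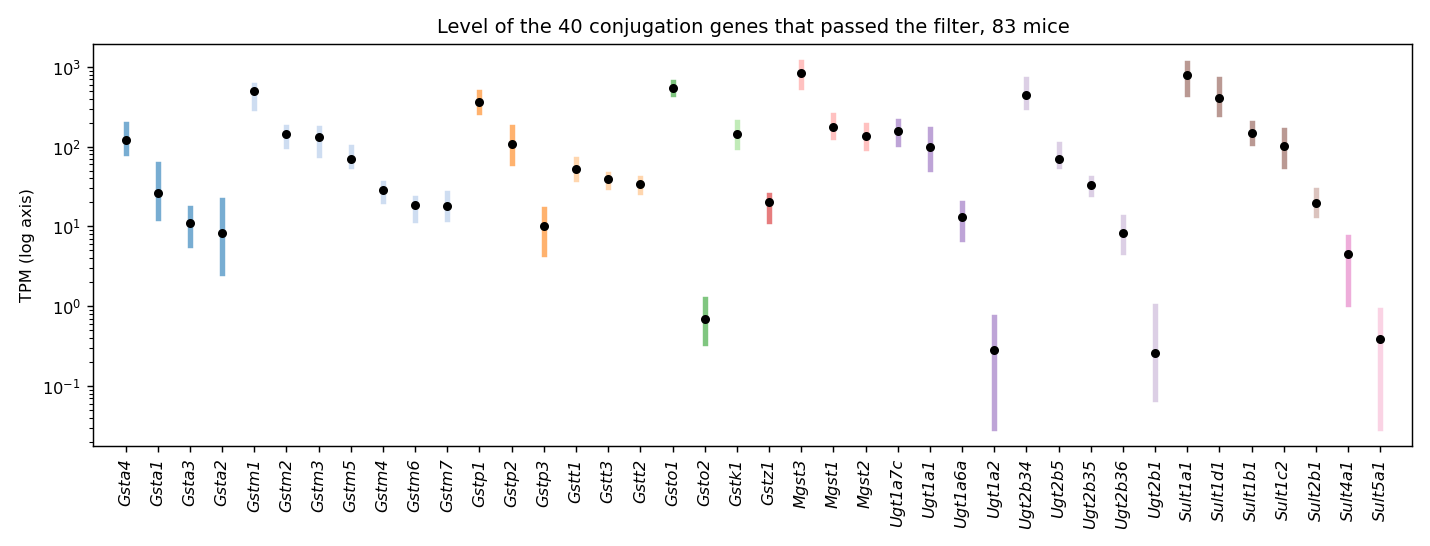
Level of each of the 40 genes that passed the filter, as TPM on a log axis. Black points are means over 83 mice, coloured bars run from the lowest to the highest mouse with a lowest value under 0.03 TPM drawn at 0.03, and genes are grouped by enzyme class; Mgst3 and Sult1a1 lie highest, at 834 and 799 TPM.

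By class, the Sult1 genes summed to 1450 TPM, the Mgst genes to 1145 TPM, the mu class to 913 TPM, Ugt2 to 550 TPM, omega to 540 TPM, pi to 478 TPM and Ugt1 to 269 TPM. These sums use whole exon lengths. By unshared bases Ugt1a7c and Ugt1a1 alone stood at 340 and 238 TPM, so the place of Ugt1 in this order depends on the length used. The alpha class was a small part, with a mean of 139.6 ± 15.2 TPM at 3 months (SD, n = 16) and 206.6 ± 29.8 TPM at 28 months (SD, n = 18).

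The comparison over the study's full age span set 28 months against 3 months. Of the 40 genes, 17 passed an adjusted p of 0.1 (42.5%), against 49.4% of all 18325 genes tested, so that the share was below the background and is not a result about these enzymes. By direction, 15 were higher at 28 months, where the background was 23.5%, and 2 were lower, where it was 25.9%. The median log2 fold change was 0.07 over the 40 genes and -0.01 over all genes tested. By family, 11 of 21 glutathione transferases, 2 of 9 glucuronosyltransferases and 2 of 7 sulfotransferases of the Sult1, Sult2, Sult4 and Sult5 groups that passed the filter had called differences, with Mgst1 and Mgst3 as the remaining calls.

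**Figure D2:**
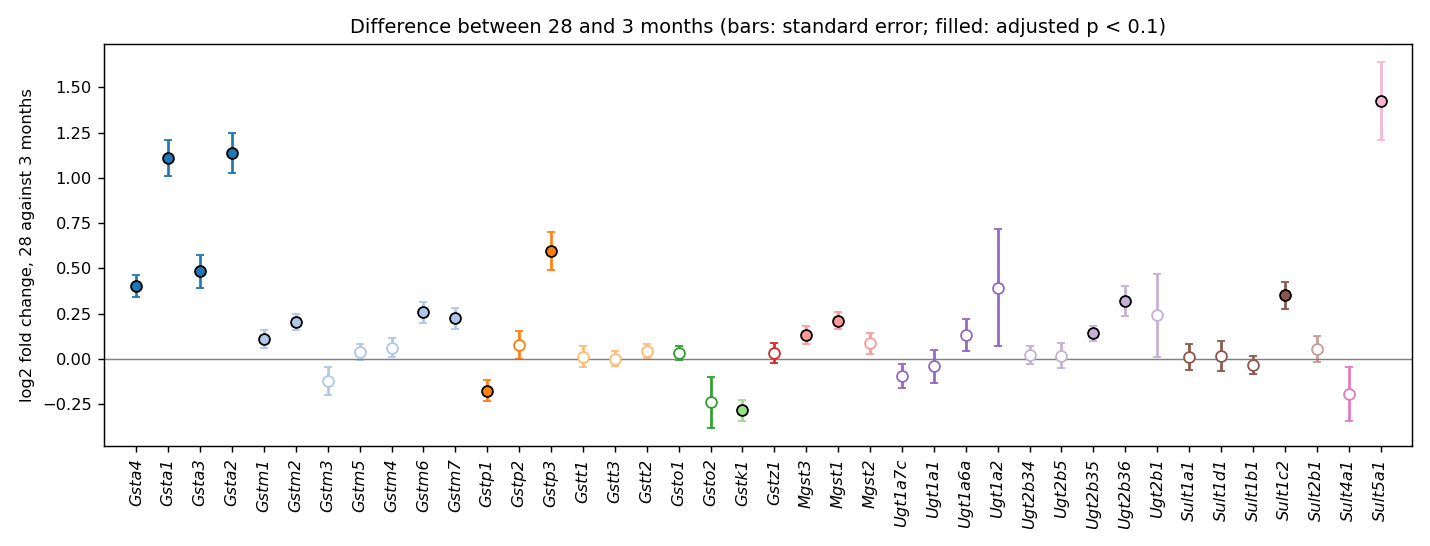
Difference between 28 and 3 months for each gene as a log2 fold change on the vertical axis, with bars of 1 standard error, grouped by enzyme class and filled where the adjusted p was below 0.1. All 4 alpha class genes lie above 0, with Gsta1 at 1.11 and Gsta2 at 1.14, Sult5a1 is at 1.43, and Gstk1 and Gstp1 are the filled points below 0.

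The alpha class transferases act on lipid peroxidation products and bulky electrophiles, and all 4 were higher in old colon. Gsta1 (chr9:78230656-78242684) ran from 4.10 to 8.68 CPM at 3 months with a median of 4.75, and from 7.02 to 19.6 CPM at 28 months with a median of 10.5. The ages between were ordered, with medians of 6.66 at 9 months, 7.75 at 15 months and 9.08 CPM at 24 months. All 18 mice of 28 months lay above the median of the young mice and 15 of them above the highest young mouse, for a log2 fold change of 1.11 (SE 0.0991, adjusted p = 8.54e-16, edgeR).

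Gsta2 (chr9:78331018-78355788) had 1.04 to 2.64 CPM at 3 months with a median of 2.14, and 2.74 to 8.43 CPM at 28 months with a median of 4.34. The 2 groups did not overlap, and the medians of the other ages were 2.53, 3.04 and 3.50 CPM. The log2 fold change was 1.14 (SE 0.111, adjusted p = 5.22e-14), and within the batches it was 0.99, 1.23 and 1.21. Gsta1 gave 1.02, 1.04 and 1.35 there.

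Gsta4, which conjugates 4-hydroxynonenal, a product of lipid peroxidation, was the most abundant of the class by TPM. It had 38.6 to 55.1 CPM at 3 months with a median of 44.2, and 50.6 to 77.7 CPM at 28 months with a median of 58.2, where 13 of 18 mice exceeded every young mouse. Its log2 fold change was 0.40 (SE 0.0592, adjusted p = 5.42e-08). Gsta3 had 8.54 to 19.4 CPM at 3 months with a median of 12.5, and a median of 16.6 CPM at 28 months with a highest mouse of 23.5. Its groups overlapped, with 7 of 18 old mice above the young range (log2 fold change 0.48, adjusted p = 8.06e-06).

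The 2 genes that share long stretches with Gsta1 but fall outside the naming rule also had higher counts. Gm3776 went from a median of 0.629 to 1.62 CPM (log2 fold change 1.55, SE 0.182, adjusted p = 6.24e-11) and Gm10639 from 0.0948 to 0.415 CPM (2.05, SE 0.225, adjusted p = 5.89e-12). Of the 855 windows of Gsta1, 553 occurred in Gm3776, 208 in Gsta2 and 108 in Gm10639, so reads of Gm3776 and Gsta1 in particular are hard to tell apart.

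**Figure D3:**
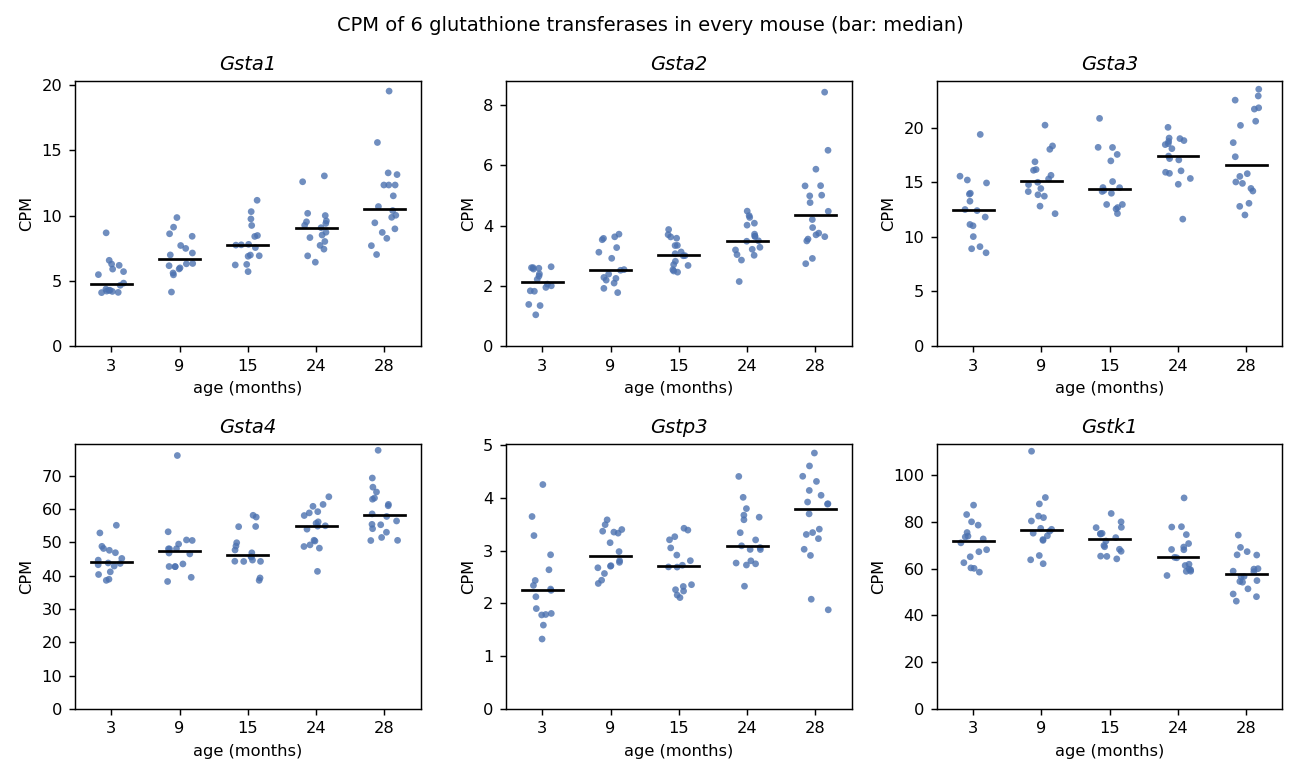
CPM in each mouse at 3, 9, 15, 24 and 28 months for 6 glutathione transferases, with 1 point per mouse and a bar at the median of each age. The medians of Gsta1 and Gsta2 are higher at each successive age, and that of Gstk1 is lowest at 28 months, at 57.6 CPM.

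The mu class transferases, cytosolic enzymes encoded side by side on chromosome 3, moved by small amounts. Of 7 genes, 4 were higher at 28 months. Gstm6 was higher by 0.26, Gstm7 by 0.22, Gstm2 by 0.20 and Gstm1 by 0.11 on the log2 scale (adjusted p from 0.000105 for Gstm2 to 0.0607 for Gstm1). Gstm2 had 54.2 to 86.5 CPM at 3 months with a median of 74.8, and 73.5 to 95.0 CPM at 28 months with a median of 84.5. Its ranges overlapped, with 8 of 18 old mice above all young mice. Gstm7 was not called with the clock output level as a covariate (0.06, adjusted p = 0.556) or without the 9 mice of high clock output (0.10, adjusted p = 0.215), and Gstm1 was not called without those mice (0.11, adjusted p = 0.119). Gstm3, Gstm4 and Gstm5 had log2 differences of -0.12, 0.06 and 0.04 that did not pass the threshold, and Gstm3 was at -0.40, -0.05 and 0.16 in the batches.

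The pi class split in direction. Gstp1 (chr19:4035407-4037985), the pi transferase found in most epithelia, was lower at 28 months, with a median of 164 CPM and a range of 134.9 to 203.5 against 189 CPM and 153.7 to 217.6 at 3 months. Of the 18 old mice, 8 lay below the lowest young mouse, and the log2 fold change was -0.18 (SE 0.0569, adjusted p = 0.00925), with -0.26, -0.16 and -0.04 in the batches. Gstp3 (chr19:4057477-4059569), far lower in level, went up from a median of 2.26 to 3.79 CPM (log2 fold change 0.60, SE 0.107, adjusted p = 4.96e-06), with 4 of 18 old mice above the young range. Gstp2 differed by 0.08 between these ages (adjusted p = 0.436). The pseudogene Gstp-ps, outside the naming rule, shares 272 windows with Gstp2 and 210 with Gstp1 and had more counts than Gstp2, with a median of 90.4 CPM at 3 months and log2 differences of -0.12 from 3 to 28 months (adjusted p = 0.158) and 0.23 from 3 to 9 months (adjusted p = 0.0350). With the clock output level as a covariate Gstp1 was at -0.03 (adjusted p = 0.779), and without the 9 mice of high clock output it was at -0.14 and still called (adjusted p = 0.0980). Gstp3 was called in both, at 0.58 and 0.63.

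Gstk1 (chr6:42245935-42250447), the kappa transferase of mitochondria and peroxisomes, was the other gene that was lower. It ranged from 58.5 to 87.1 CPM at 3 months with a median of 71.8, and from 46.1 to 74.3 CPM at 28 months with a median of 57.6. At 28 months 9 of 18 mice fell below every young mouse and 1 exceeded the young median. The log2 fold change was -0.29 (SE 0.0604, adjusted p = 8.04e-05), and it was -0.37, -0.27 and -0.16 in the batches. Given the clock output level it was -0.13 (adjusted p = 0.156), and without the 9 mice of high clock output it was -0.24 and still called.

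The genes of the other soluble classes did not pass the threshold over this span. Gsto1 had a median of 343 CPM at 3 months and 358 CPM at 28 months, with ranges of 313.9 to 410.4 and 319.7 to 444.1 (log2 fold change 0.03, adjusted p = 0.540). Gstz1, the maleylacetoacetate isomerase of tyrosine breakdown, had medians of 34.4 and 34.2 CPM (0.03, adjusted p = 0.661). Gstt1 had 26.2 and 25.7 CPM (0.01, adjusted p = 0.883), and the theta genes Gstt2 and Gstt3 had log2 differences of 0.04 and 0.00. A p that misses the threshold does not show that these levels are equal.

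Among the membrane-bound transferases, Mgst1, which sits in the endoplasmic reticulum and mitochondria and also reduces lipid peroxides, had a median of 110 CPM (97.8 to 149.1) at 3 months and 126.5 CPM (107.4 to 160) at 28 months. The ranges overlapped widely, although 17 of 18 old mice exceeded the young median (log2 fold change 0.21, SE 0.0466, adjusted p = 0.000157). Mgst3 went from 291 to 321 CPM by the medians (0.13, adjusted p = 0.0262), and Mgst2, which can make leukotriene C4, had medians of 162.5 and 163.3 CPM with no call. Without a batch term Mgst3 was not called (0.11, adjusted p = 0.121). With the clock output level as a covariate neither Mgst1 (0.12, adjusted p = 0.106) nor Mgst3 (0.13, adjusted p = 0.114) passed the threshold, and without the 9 mice of high clock output both did (0.14, adjusted p = 0.0403, and 0.12, adjusted p = 0.0641).

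Of the 9 glucuronosyltransferases tested, 2 differed over this span. Ugt2b34, a member of the steroid and bile acid conjugating family and the highest by TPM, had 543.1 to 702.2 CPM at 3 months and 527.7 to 966.6 CPM at 28 months, with medians of 638 and 603 (log2 fold change 0.02, adjusted p = 0.782). The called genes were lower in level. Ugt2b36 went from a median of 4.96 CPM (4.15 to 6.24) to 6.04 CPM (4.37 to 8.85), with 7 of 18 old mice above the young range (0.32, SE 0.0845, adjusted p = 0.00144), and Ugt2b35 went from 34.2 to 37.6 CPM (0.14, adjusted p = 0.00572). Both lost the call with the clock output covariate, at 0.22 and 0.07, and without the 9 mice of high clock output, at 0.18 and 0.10. Of the UGT1 locus, Ugt1a7c had medians of 212 and 191 CPM (-0.09, adjusted p = 0.240) and Ugt1a1 of 79.4 and 80.1 CPM (-0.04).

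Sult5a1, a sulfotransferase of little known substrate, had a log2 fold change of 1.43 (SE 0.214, adjusted p = 8.76e-08) at a very low level. It ran from 0 to 0.478 CPM at 3 months with a median of 0.310, and from 0.275 to 1.27 CPM at 28 months with a median of 0.879. The medians of 9, 15 and 24 months were 0.448, 0.454 and 0.587 CPM, and 15 of 18 old mice exceeded every young mouse. The gene (chr8:123140192-123158315) averaged 0.386 TPM, so each value rests on few reads. Sult1c2 went from 56.7 CPM (35.6 to 70.6) to 65.6 CPM (53.8 to 96.5), a log2 fold change of 0.35 (SE 0.0750, adjusted p = 8.97e-05) that was 0.19 with the clock output covariate (adjusted p = 0.110) and 0.18 without the 9 mice of high clock output (adjusted p = 0.0795).

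The most abundant sulfotransferases did not pass the threshold over this span. Sult1a1 had medians of 417 and 428 CPM (log2 fold change 0.01, adjusted p = 0.927), and it was at -0.17 with the clock output covariate. Sult1b1, which acts on thyroid hormones, had 141 and 136 CPM, and Sult1d1 had 329 and 334 CPM. Sult2b1, a cholesterol sulfotransferase, had 24.6 and 25.8 CPM (0.05, adjusted p = 0.583), and Sult4a1, best known from neurons, had 3.88 and 3.48 CPM (-0.20, adjusted p = 0.291).

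The step from 3 to 9 months asked for changes early in adult life. It called 13 of the 40 genes (32.5%), against 8.69% of all genes. All 13 were higher, where 3.64% of all genes were called higher, and 0 were lower by edgeR, where 5.05% were. At an unadjusted p below 0.05 there were 20, 0 of them lower, and DESeq2 called 15, the 13 among them and 0 lower. The median log2 fold change was 0.13, and -0.01 over all genes. Glutathione transferases, Gsta and Gstm genes among them, made up 11 of the 13, with Ugt2b35 and Sult5a1 as the others.

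Gstp2 had the smallest adjusted p of this step. It went from 23.5 to 47.9 CPM with a median of 34.6 at 3 months to 31.8 to 71.7 CPM with a median of 45.4 at 9 months, and 5 of 16 mice exceeded every young mouse (log2 fold change 0.43, SE 0.0787, adjusted p = 0.000138). The batches gave 0.31, 0.19 and 0.83, so the size differed between them. Gstm6 was at 0.27 (adjusted p = 0.00303), Gsta1 at 0.42 (adjusted p = 0.00733) and Gsta2 at 0.39 (adjusted p = 0.0316). Gstm1, the highest of the mu class, went from a median of 225 to 260.5 CPM (0.18, adjusted p = 0.0270). By batch, Gstm6 gave 0.32, 0.05 and 0.44 and Gstm1 gave 0.19, 0.03 and 0.34. Gsta1 gave 0.24, 0.35 and 0.72 and Gsta2 gave 0.22, 0.40 and 0.57. Each of these genes, like Gstp2, had its largest value in the last batch, so their rises were uneven between batches. Ugt2b35 went the other way, with 0.16, 0.16 and 0.11.

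Of the 8 libraries that stand apart, 4 are at 3 months and 3 at 9 months, and without the 8 the step from 3 to 9 months called 5 genes, which were Gsta1, Gstm1, Gstm5, Gstm6 and Gstp2, and 3.01% of all genes. The log2 fold change of Gsta2 was then 0.34 (adjusted p = 0.171) and that of Sult5a1 was 0.46 (adjusted p = 0.332). Within single batches, with far fewer mice, the step called 0, 0 and 5 genes. Without the 8 libraries the span from 3 to 28 months called 19 genes, including the 17.

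Between 9 and 15 months the main edgeR fit called 0 of the 40 genes, DESeq2 called 0 as well, and 0.431% of all genes were called. Without the 8 libraries that stand apart Gstz1 was called (-0.23, adjusted p = 0.0733, edgeR), where 0.369% of all genes were. Gstz1 was also called with marker covariates (-0.21, adjusted p = 0.04555), and Ugt1a1 with only these 2 ages fitted (-0.31, adjusted p = 0.0479). At an unadjusted p below 0.05 there were 6, all lower at 15 months, which were Gstp2, Gstz1, Mgst2, Sult1a1, Ugt1a1 and Ugt1a7c. The median log2 fold change was -0.07 against 0.01 over all genes. Ugt1a1 had medians of 72.8 and 58.5 CPM and Sult1a1 of 429 and 375 CPM at these ages.

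From 15 to 24 months 3 of the 40 genes were called (7.5%), against 13.5% of all genes. Sult5a1 and Gsta4 were higher, where 6.28% of all genes were, and Gsto2 was lower, where 7.24% were. Gsta4 went from a median of 46.3 CPM (38.6 to 58.1) to 55.0 CPM (41.3 to 63.7), with 5 of 17 mice above the range of the younger group (log2 fold change 0.18, SE 0.0597, adjusted p = 0.0415). Sult5a1 was at 0.67 (adjusted p = 0.0351) and Gsto2, an enzyme that recycles vitamin C, at -0.37 (adjusted p = 0.0911). The Gsto2 call was lost in DESeq2 (adjusted p = 0.107), with marker covariates (0.110), without the libraries that stand apart (0.168) and without the 9 mice of high clock output (0.101).

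From 24 to 28 months 7 of the 40 genes were called (17.5%), against 11.7% of all genes. Sult1a1, Ugt1a1, Mgst1, Gsta1 and Gsta2 were higher, where the background was 5.66%, and Gstk1 and Gstm3 were lower, where it was 6.01%. Sult1a1 went from 263.6 to 398.4 CPM with a median of 351 at 24 months to 271.9 to 545.8 CPM with a median of 428 at 28 months, and 12 of 18 of the oldest mice exceeded all mice of 24 months (log2 fold change 0.28, SE 0.0728, adjusted p = 0.0107). Mgst1 was at 0.20 (adjusted p = 0.00377), Gsta2 at 0.39 (adjusted p = 0.0156), Gsta1 at 0.32 (adjusted p = 0.0260) and Gstk1 at -0.20 (adjusted p = 0.0228).

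The output level of the clock had a median of 3.95 log2 CPM at 24 months and 5.68 at 28 months, so it overlaps with age in this step. With that level as a covariate in edgeR 0 of the 40 genes were called from 24 to 28 months, and without the 9 mice of 28 months that had the high level the count was also 0. Leaving out 9 of 18 mice also lowers power. Age, clock output and power cannot be told apart in these fits. The share of all genes called fell too, from 11.7% to 0.126% and 0.565% in these fits, so calls were lost across all genes as well. Sult1a1 was at 0.09 and 0.19 in these fits, Mgst1 at 0.11 and 0.12, Ugt1a1 at 0.03 and 0.01, and Gstk1 at -0.05 and -0.17. Gsta2 was at 0.26 and 0.24 and Gsta1 at 0.22 and 0.21. At an unadjusted p below 0.05 these fits had 2 of 40 and 4 of 42 genes. Over the span from 3 to 28 months the same fits called 13 genes, 9 of them among the 17, and 15 genes, 13 of them among the 17, where 32.1% and 40.3% of all genes were called. Gsta1 stood at 1.01 and 1.00, Gsta2 at 1.01 and 1.00, Gsta3 at 0.53 and 0.50, Gsta4 at 0.46 and 0.35, Gstp3 at 0.58 and 0.63 and Sult5a1 at 1.30 and 1.20, all called in both.

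Over all 5 ages at once 26 of the 40 genes differed (65%), against 54.9% of all genes. A course over age that bends rather than running straight, the kind of change the study looked for, was called in 12 genes (30%) against 16.2% of all genes. They were Gstp2, Ugt1a1, Mgst1, Sult1a1, Gstk1, Gstm3, Gstm6, Gstm5, Gstz1, Ugt2b35, Gstt2 and Gstm1. These tests and the steps share mice, and they do not count as independent evidence of one another.

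The shapes of the 12 differed. Gstp2 had medians of 34.6, 45.4, 39.0, 40.1 and 35.1 CPM at 3, 9, 15, 24 and 28 months, highest at 9 months and back near the first value at the end. Gstm3 was also highest at 9 months, with 56.1, 66.2, 62.3, 59.8 and 49.6 CPM, and ended below its first median. Ugt1a1 was lowest in the middle with 79.4, 72.8, 58.5, 63.1 and 80.1 CPM.

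Sult1a1 had 417, 429, 375, 351 and 428 CPM, so that its lowest median came at 24 months. Gstk1 had 71.8, 76.4, 72.5, 64.8 and 57.6 CPM with its highest median at 9 months and a lower one at each age after that. No alpha class gene was among the 12, and their medians were highest at 24 or 28 months. With the clock output covariate the count was 7 (8.17% of all genes), and without the 9 mice of high clock output it was 8 (8.77% of all genes). Gstt2, Gstz1, Mgst1 and Sult1a1 were not called in either, and Gstm1 was not called in the former. Ugt2b35 was not called without the 8 libraries that stand apart.

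**Figure D4:**
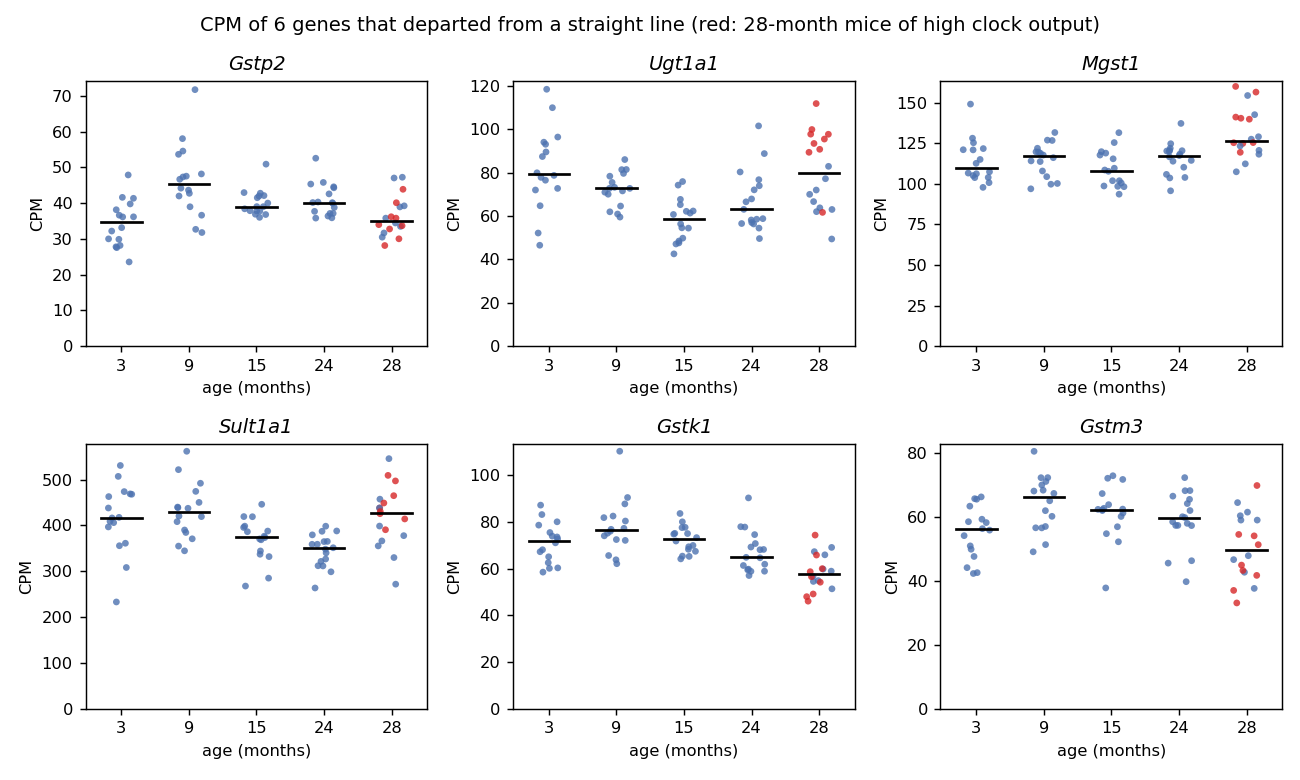
CPM in each mouse at each age for 6 of the genes whose course departed from a straight line, with a bar at the median of each age and the 9 mice of 28 months with high clock output in red. The medians of Gstp2 and Gstm3 are highest at 9 months, at 45.4 and 66.2 CPM, and that of Ugt1a1 is lowest at 15 months, at 58.5 CPM.

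How far a level followed the makeup of the tissue was examined across the 83 mice, after age and batch were fitted and removed. Against the level of the pan-epithelial markers 9 genes correlated positively and 10 negatively at a permutation adjusted p below 0.1, and against smooth muscle 4 positively and 8 negatively, over a family of 80 tests. Sult4a1 followed smooth muscle, with r = 0.84 and rho = 0.74 (n = 83, permutation adjusted p = 0.000267, the smallest found in the family). Without the 2 mice farthest from the median marker level r was 0.80, and in the batches it was 0.81, 0.75 and 0.91. Enteric neuron markers also varied, from 1.68 to 3.79 mean log2 CPM at 3 months, and Sult4a1 was not tested against them. The relation therefore does not separate muscle from neuron content.

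Sult2b1 followed the epithelial markers, with r = 0.71 and rho = 0.66 (n = 83, permutation adjusted p = 0.000267), r = 0.64 without 2 mice and 0.42, 0.72 and 0.82 in the batches. Gstm2 had r = 0.52 and rho = 0.42 (permutation adjusted p = 0.000267), 0.45 without 2 mice and 0.53, 0.45 and 0.60 in the batches. Ugt1a6a went against the epithelial markers with r = -0.45 and rho = -0.45 (permutation adjusted p = 0.0006), -0.50 without 2 mice and -0.68, -0.39 and -0.35 in the batches. Sult5a1 had r = 0.39 against smooth muscle (permutation adjusted p = 0.00622) but rho = 0.21 (adjusted p = 0.127) and r = 0.17 without 2 mice, with 0.41, 0.31 and 0.33 in the batches, so the pooled relation weakened without those mice. Gsta1 and Gsta2 had r between 0.00706 and 0.157 with either level, with permutation adjusted p from 0.270 to 0.968. Against smooth muscle the batches disagreed, with 0.03, 0.33 and -0.25 for Gsta1 and -0.08, 0.57 and -0.28 for Gsta2. Against the epithelial markers they gave 0.25, 0.28 and 0.01 for Gsta1 and 0.06, 0.11 and 0.13 for Gsta2.

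Against the clock output level, tested after the data were seen and in a family of 40, 11 genes correlated positively and 6 negatively. Gstt1 went against it with r = -0.55 and rho = -0.56 (n = 83, permutation adjusted p = 0.0002), -0.53 without 2 mice and -0.72, -0.46 and -0.34 in the batches. Ugt1a6a, which conjugates planar phenols, went with it at r = 0.51 and rho = 0.50 (permutation adjusted p = 0.0002), 0.48 without 2 mice and 0.54, 0.34 and 0.63 in the batches. Gstk1 had r = -0.39 and rho = -0.38 (permutation adjusted p = 0.00133), -0.37 without 2 mice and -0.36, -0.43 and -0.36 in the batches. For Gsta1 and Gsta2 r was 0.13 and 0.15 (permutation adjusted p = 0.370 and 0.319).

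**Figure D5:**
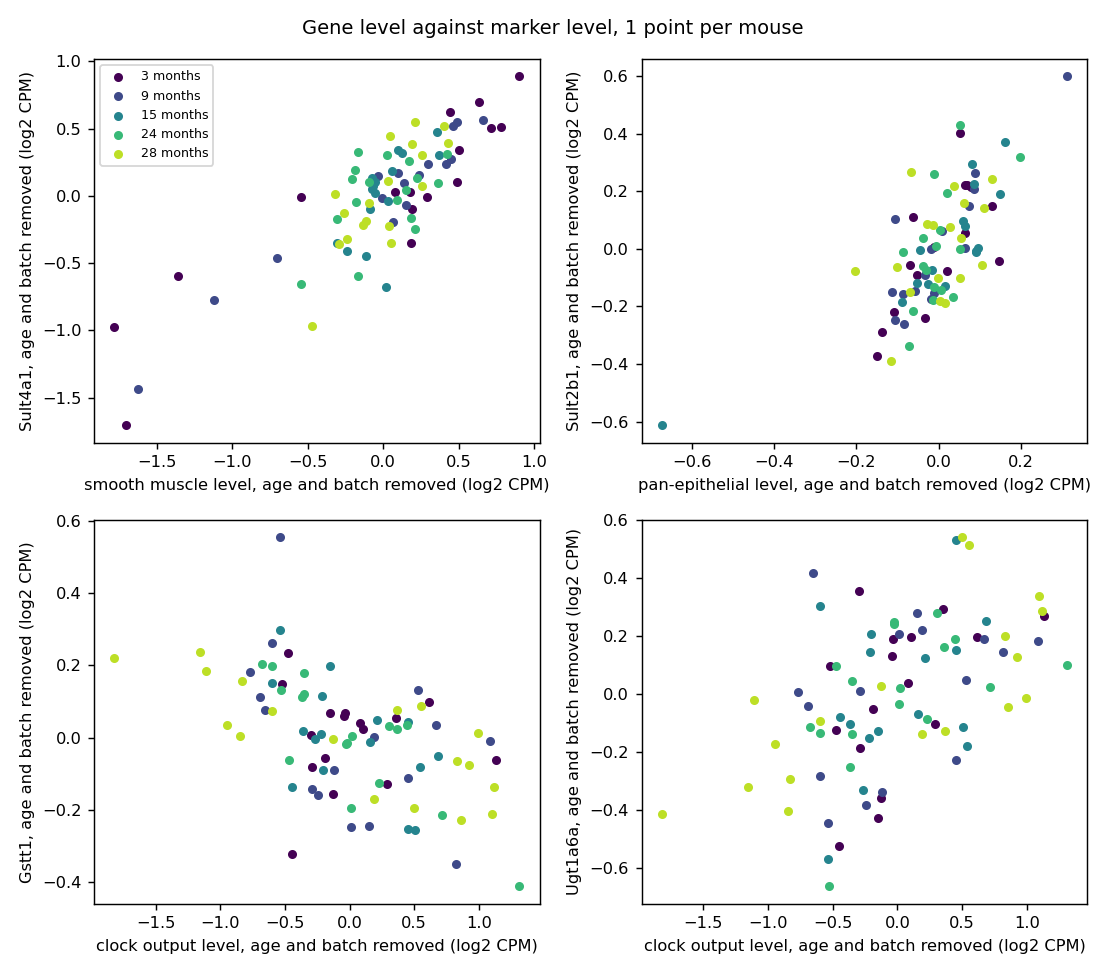
Level of 4 enzymes against marker levels, 1 panel each, both in log2 CPM after removal of age and batch, with 1 point per mouse coloured by age. Sult4a1 goes with the smooth muscle markers (r = 0.84), Sult2b1 with the pan-epithelial markers (r = 0.71) and Ugt1a6a with the clock output level (r = 0.51), and Gstt1 goes against the latter (r = -0.55).

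The genes around the conjugation step were read from lists of 69 genes, of which 65 passed the filter. Between 3 and 28 months 34 of them were called, 23 higher and 11 lower, a share near the 49.4% of all genes, with a median log2 fold change of 0.03. Among all genes 23.5% were higher and 25.9% lower, which is the background for each list that follows. The count was 23 with the clock output covariate, 30 without the 9 mice of high clock output and 34 without the 8 libraries that stand apart. Unlike for the enzymes, calls lost in these fits are not marked gene by gene in what follows. Of the 12 transcription factors that govern such enzymes, Esr1 (0.48), Nr1i3, the receptor CAR (0.46), and Nr1i2, the receptor PXR (0.17), were higher, and Cdx2 (-0.16) and Hnf4a (-0.12), both factors of epithelial identity, were lower. Nr1i3 was low in level, with means of 0.883 CPM at 3 months and 1.24 CPM at 28 months. Nfe2l2, which encodes Nrf2, was at -0.09 (adjusted p = 0.156), and Ahr was at 0.04.

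Among 11 tested genes that these sensors are known to drive, 3 were higher and 4 lower. Cyp1b1, a target of Ahr that is also expressed in stroma, was at 1.89 (adjusted p = 4.31e-13), Nqo1 at 0.20 and Gclm at 0.10. The level of Cyp1b1 was low, with means of 0.461 CPM at 3 months and 1.70 CPM at 28 months. Hmox1 at -0.36, Srxn1 at -0.20, Txnrd1 at -0.19 and Osgin1 at -0.17 were lower. Nqo1 and Gclm, which were higher, and these 4, which were lower, are all known Nrf2 targets.

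Of 11 genes of glutathione supply 4 were higher and 2 lower. Gclc, the catalytic subunit of the limiting step of glutathione synthesis, was at 0.38 (adjusted p = 1.52e-06), and Gss, which completes glutathione, was at 0.16. Ggt5 at 0.27 and Oplah at 0.23 were also higher. Ggt1, which breaks glutathione down outside the cell, was at -0.76, and Ggct was at -0.21, so that Ggt1 and Ggt5 went in opposite directions. Supply of UDP-glucuronic acid had 1 of 4 genes called, the transporter Slc35d2 at 0.25, and supply of the sulfate donor had 2 of 8, Slc35b3 at 0.14 and Bpnt1 at -0.07.

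Other conjugating enzymes had 6 of 9 tested genes higher and 1 lower. Inmt, an N-methyltransferase, was at 2.03, Hnmt, which methylates histamine, at 0.41 and the prostaglandin synthase Ptges at 0.39, whereas Ugt8a, a galactosyltransferase of myelin lipids that the naming rule leaves out, was at -2.21 (adjusted p = 2.42e-13). The epoxide hydrolases Ephx1 and Ephx2 were at 0.29 and 0.23, and Arsb, a lysosomal sulfatase, at -0.13. Of 6 efflux pumps 3 were higher, which were Abcc2 at 0.74, Abcb1a at 0.42 and Abcc4 at 0.11. Markers of other cell types moved over the same span, with 5 of 5 endothelial and 5 of 6 macrophage markers higher, 6 of 6 tuft cell markers lower, 5 of 6 goblet cell markers lower and 1 higher, and 3 of 7 pan-epithelial and 2 of 6 colonocyte markers lower. Goblet markers averaged 11.64 ± 0.151 log2 CPM over the 16 youngest and 11.32 ± 0.172 log2 CPM over the 18 oldest mice (SD). Called crypt base markers numbered 4 of 6, of which 1 was higher and the rest lower. Called enteroendocrine markers numbered 3 of 6, all lower. The part of these cell types in the differences between the ages was not tested.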

How the data were processed

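Gene counts of 83 mice were used as deposited. Per the labels and the study's methods, the authors trimmed reads with cutadapt 2.8, aligned them to GRCm38.p6 (mm10) with HISAT2 2.1.0, removed secondary alignments with SAMtools 1.9 and counted with featureCounts of Subread 2.0.1; the counts were not normalised. Samples were grouped by the age in the labels.

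Genes were filtered with filterByExpr, scaled by TMM and tested with edgeR 4.0.16 (R 4.3.3) quasi-likelihood tests with age and batch as terms, Benjamini-Hochberg adjustment over 18325 genes and a threshold of 0.1. CPM values are TMM-scaled, and TPM used exon lengths of GENCODE M21. Log2 CPM used a prior count of 2, and correlations used 100000 permutations. The test was checked on simulated counts. Alternatives included DESeq2, other filters, a replicate block and single batches; covariates and exclusions for clock output, and the libraries standing apart, were chosen after seeing the data. The members and lists were chosen with earlier results of these data known. Genes given in full were the highest of each class, up to 3 called rises and 3 called falls per comparison with a mean of at least 1 CPM and the same direction in every batch, and the 3 of lowest adjusted p for a departure from a straight line; Gsta3, Gstm2, Sult1c2, Ugt2b35 and Ugt2b36 were added after their values were seen. The replicate numbers were not shown to pair the mice. The p-values measure the spread between the mice of an age.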

Additional observations from a re-analysis of the deposited data

How the results depend on the processing

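Of 389 single-gene values over 26 results, 318 kept their direction and their side of the threshold under an alternative, 54 kept the direction and lost the call, 6 gained it and 11 reversed. The count from 3 to 28 months (17) was 11, 9 and 14 within batches 1 to 3. That from 3 to 9 months (13) was 8 with no filter, 7 at an adjusted p below 0.05, 5 without the libraries that stand apart, and 0, 0 and 5 within batches 1 to 3. That from 9 to 15 months (0) was 1 with marker covariates, 1 with only the 2 ages fitted and 1 without those libraries (Gstz1, Ugt1a1 and Gstz1). That from 15 to 24 months (3) was 1 with at least 10 counts in every mouse, 5 with only the 2 ages, and 0, 0 and 0 within batches. That from 24 to 28 months (7) was 1, 0 and 0 within batches, 0 with the clock output covariate and 0 without the 28-month libraries of high clock output. Departures from a straight line (12) numbered 7 with that covariate and 7 at an adjusted p below 0.05. Pathway genes (34) numbered 19, 12 and 18 within batches. Single batches hold fewer mice, and the cause of the other differences was not tested. The reversed values, all of genes without a call from 3 to 28 months, were Gsto1 at -0.0175 and Gstt1 at -0.13 in batch 1, Sult1a1 at -0.0394, Sult2b1 at -0.019 and Ugt2b34 at -0.0332 in batch 2, Gstt1 at -0.0177 and Gstz1 at -0.0142 with marker covariates, Sult1a1 at -0.17 and Ugt2b34 at -0.044 with the clock output covariate, and Sult1a1 at -0.0743 and Ugt2b34 at -0.0826 without the libraries of high clock output. With a replicate block the counts were 17, 11, 0, 2 and 5 for the 5 comparisons, 26, 11 and 32 for the rest, where the lost calls were Gstm7 and Gstz1 from 3 to 9 months, Gsto2 from 15 to 24 months, Gstm3 (-0.20) and Ugt1a1 from 24 to 28 months, and Gstm1 among the departures from a line. Mice of the same number had a median r of 0.0103 over 161 pairs, with 27 above 0.1. Pairs of different number had a median r of -0.00263 over 2593 pairs, with 440 above 0.1. These values give no sign of a pairing by number but cannot exclude one. Genes under 1 CPM, such as Sult5a1, rest on few reads.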
